A study of Mus musculus with 9 samples.

Results

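Serotonergic neuron genes were followed through 3 time points of neural stem cell (NSC) culture: the transcription factor (TF) genes Fev, Gata2, Gata3 and Lmx1b, the enzyme genes Tph2, Ddc, Gch1 and Maob, and the transporter genes Slc6a4 and Slc18a2. These 10 genes were taken by their exact symbols from a table of 38197 symbols, and each symbol matched a row. The study asked how NSCs of the ventral hindbrain change over time, since one lineage there gives rise first to visceral motor neurons (MNs) and later to serotonergic neurons. All 9 libraries came from wild-type mouse embryonic stem cells of strain 129 (the E14.1 line) grown as a monolayer. By the sample labels, every culture had received retinoic acid (RA) and SAG from 0 to 3 days in differentiation conditions (DDC). SAG is an agonist of the Shh receptor Smoothened. The methods of the study place the removal of both from the medium somewhat later. Progenitors were enriched with magnetic beads that bind Prominin-1, a protein on their surface, and collected at 4.5DDC, 5.5DDC and 6.5DDC, with 3 libraries for each time point. The sample titles give these days, whereas another label of the same samples gives 4, 5 and 6 days. A single cell line was used, and no untreated or unsorted samples were analysed here. The labels do not say that libraries came from separate cultures, so p-values measure only the spread between these libraries.

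Serotonergic neurons of the hindbrain make serotonin from tryptophan in 2 enzymatic steps, pack it into vesicles and take it back up after release. Their identity is set by TFs, among them Gata2, Gata3, Lmx1b and the ETS-domain factor Fev (also called Pet-1), which together turn on the genes for synthesis and transport. Several members are also used elsewhere: Gata2 and Gata3 in GABAergic interneurons and in blood, Lmx1b in the floor plate and in dorsal neurons, and Ddc and Slc18a2 in catecholamine neurons.

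Levels are given in FPKM, a read abundance scaled to transcript length and library size, so that genes can be set side by side. Tests used the read counts, which ran from 11066568 to 25506193 per library, and 3 counts correspond to between 0.118 and 0.271 CPM (counts scaled to the library total). Genes were tested with edgeR's quasi-likelihood test over all 9 libraries, with Benjamini-Hochberg adjustment of p-values over the 14742 genes that passed the filter on low counts. SE is the standard error of a log2 fold change. A gene is called changed at an adjusted p under 0.05. Replicate 1 had the lowest summed level of pan-neuronal markers and the highest of floor plate markers at each time point.

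Between 4.5DDC and 6.5DDC, 7 of the 10 genes rose, Ddc fell, and Lmx1b and Maob were not called. Among all genes tested, 9.21% were called higher and 9.53% lower over this span. The genes that rose were Fev, Gata2 and Gata3 among the TF genes, Tph2 and Gch1 among the enzyme genes, and both transporter genes. In FPKM, all 3 libraries of 6.5DDC lay above all 3 of 4.5DDC for 7 genes and below them for 1 gene, against 17.9% of all genes above and 16.7% below. The median log2 fold change was 2.14 over the 10 genes and 0.0040 over all genes tested. Fev and Slc6a4 passed the filter only through the 6.5DDC libraries, and Tph2 through these and 1 library of 5.5DDC, so for them a higher level at 6.5DDC was a condition of being tested, and the counts of genes above are a description.

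The edgeR test on time point alone called no member over either shorter interval, whereas other fits called some. In the first interval, 4.5DDC to 5.5DDC, 0 of the 10 genes were called, 7 had an unadjusted p under 0.05 in the same edgeR test (15.4% of all genes did), and DESeq2 called Gata2 and Slc18a2. Of all genes, 0.0611% were called higher and 0.0136% lower over this interval. From 5.5DDC to 6.5DDC, 0 genes were called, 6 had an unadjusted p under 0.05 (18.5% of all genes did), and DESeq2 called Fev, Gch1, Slc6a4 and Slc18a2, against 0.0271% of all genes called higher and 0.197% called lower by edgeR. DESeq2 called 1.97% of all genes higher and 1.38% lower in the first interval, and 1.7% and 2.79% in the second. When the model also held a block for the replicate number, Gata2 and Slc18a2 were called higher in the first interval, where 1.27% of all genes were called higher and 0.17% lower. In the second interval the block gave Fev, Gata3, Slc6a4 and Slc18a2 as higher, against 0.787% of all genes higher and 0.536% lower. The replicate number does not separate replicate 2 from replicate 3, so calls with the block depend on matching libraries by number. In FPKM the libraries did not overlap for 4 higher and 2 lower genes in the first interval (12.1% and 11.7% of all genes). In the second they did not overlap for 5 higher genes and 1 lower gene (10.1% and 13.9%). Fev and Slc6a4 passed the filter only through 6.5DDC, and Tph2 through 6.5DDC and 1 library of 5.5DDC. These genes are among the 5 higher genes and the 6 with an unadjusted p under 0.05 in the second interval. Both counts, and any call of these genes in that interval under any fit, are therefore a description.

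**Figure D1:**
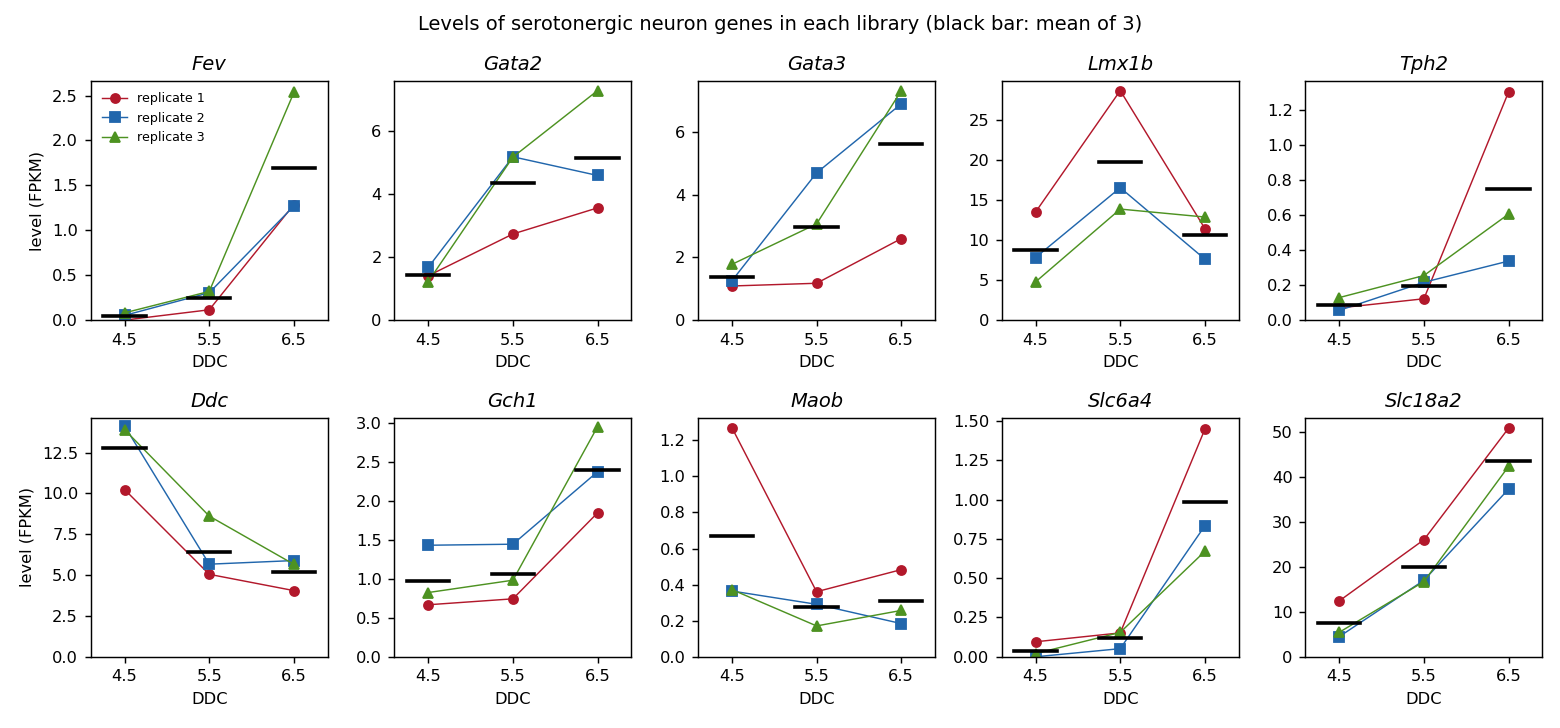
Level of each gene in FPKM (y axis, linear and separate for each gene) against DDC, with 1 point per library, lines joining libraries of the same replicate number and black bars for the mean of 3 libraries. Fev and Slc6a4 stay under 0.4 FPKM up to 5.5DDC, Slc18a2 reaches 50.9 FPKM in replicate 1 of 6.5DDC, and Ddc runs the other way.

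The starting regions of Fev, Tph2 and Slc6a4 are shown because these genes were at or near the limit of counting at 4.5DDC and were called higher at 6.5DDC. Each sequence holds the 250 bases before and the 50 bases after a start site of the gene, from RefSeq on GRCm38.p6, written 5′ to 3′ along the gene's own strand. They lie at chr1:74885359-74885658 (minus strand) for Fev, chr10:115184973-115185272 (minus strand) for Tph2 and chr11:76998347-76998646 (plus strand) for Slc6a4. Capitals mark the letters of 2 motifs, searched on both strands: a GATA motif (AGATAA or AGATAG or TGATAA or TGATAG) in each of the 3, and a homeodomain motif (TTAATTA) in Fev. The GATA motif of Slc6a4 lies on the opposite strand, so the printed strand shows its reverse complement.
Fev: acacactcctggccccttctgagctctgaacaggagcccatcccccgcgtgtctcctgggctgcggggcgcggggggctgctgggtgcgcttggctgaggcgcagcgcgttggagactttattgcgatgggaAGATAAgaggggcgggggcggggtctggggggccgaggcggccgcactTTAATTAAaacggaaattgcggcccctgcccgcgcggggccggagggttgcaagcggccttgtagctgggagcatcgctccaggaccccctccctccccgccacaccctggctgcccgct
Tph2: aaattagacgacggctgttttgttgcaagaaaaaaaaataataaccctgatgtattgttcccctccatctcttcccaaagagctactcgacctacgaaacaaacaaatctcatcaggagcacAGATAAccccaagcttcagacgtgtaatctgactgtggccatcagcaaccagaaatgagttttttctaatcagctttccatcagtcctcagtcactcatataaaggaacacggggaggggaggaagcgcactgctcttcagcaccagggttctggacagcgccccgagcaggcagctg
Slc6a4: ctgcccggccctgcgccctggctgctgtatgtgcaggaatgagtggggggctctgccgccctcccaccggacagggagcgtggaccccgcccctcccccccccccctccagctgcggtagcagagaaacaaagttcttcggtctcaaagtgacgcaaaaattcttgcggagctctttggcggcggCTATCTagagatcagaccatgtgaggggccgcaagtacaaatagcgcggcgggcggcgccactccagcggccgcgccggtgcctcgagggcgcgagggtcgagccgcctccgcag

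The first base of the GATA motif lay at −118 from the start in Fev, at −128 in Tph2 and at −65 in Slc6a4. Starting regions were found for 9 of the 10 genes, with 2 for Gata2 and 2 for Ddc, and Maob had no entry. The GATA motif was present in 6 of these 9 genes, which also included Gata3, Gch1 and Slc18a2, and in 29.8% of the 32851 regions of the same length. The ETS core (CCGGAA or GGAAGT) was present in 2 genes, Gata3 and Lmx1b, and in 32.1% of all regions. The homeodomain motif of Fev reads on both strands through the same overlapping letters, and it was found in no other member and in 3.07% of all regions. No motif was found in the regions of Gata2 and Ddc. These matches describe letters in a window, and nothing was measured about binding there.

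Fev, the ETS factor that marks serotonergic neurons after their last division, was at the limit of counting at 4.5DDC and rose over the whole span. It lies at chr1:74881509-74885419 on the minus strand of GRCm38. In replicates 1, 2 and 3 it had 0, 0.0521 and 0.0806 FPKM at 4.5DDC (0, 1 and 2 counts), 0.115, 0.305 and 0.319 FPKM at 5.5DDC (5, 6 and 6 counts) and 1.29, 1.27 and 2.54 FPKM at 6.5DDC (27, 32 and 69 counts). The 3 time points did not overlap, and the step after 5.5DDC was the larger in FPKM. The summed counts went from 3 to 128 between 4.5DDC and 6.5DDC, a ratio in CPM of 41.0 with a 95% counting interval from 13.7 to 201. The edgeR log2 fold change was 5.14 (SE 0.77, edgeR adjusted p = 0.00311), and it was called under all 20 alternative settings (adjusted p from 1.17e-05 to 0.0186). With limma on log2 FPKM the change was 3.61 with 0.1 added and 1.34 with 1 added. In edgeR its size depended on single libraries of 4.5DDC, with 4.46 without replicate 1 and 6.02 without replicate 3. From 4.5DDC to 5.5DDC the log2 fold change was 2.31 (edgeR adjusted p = 0.265), with 1.63 and 3.19 when the same libraries were left out. From 5.5DDC to 6.5DDC it was 2.83 (SE 0.61, edgeR adjusted p = 0.0931), and with the replicate block 2.79 (adjusted p = 0.0324). In bulk RNA, a larger number of cells of a type and more RNA per cell cannot be told apart, here and in all results that follow.

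Gata2, a zinc finger TF that acts early in the serotonergic lineage, rose over the span, with most of the difference in the first interval. It lies at chr6:88193891-88207032 on the plus strand. Its level was 1.40, 1.67 and 1.22 FPKM in replicates 1 to 3 of 4.5DDC, 2.73, 5.17 and 5.16 FPKM at 5.5DDC and 3.55, 4.58 and 7.27 FPKM at 6.5DDC. All libraries of 4.5DDC lay below all others, the libraries of 5.5DDC and 6.5DDC overlapped, and replicate 1 was lowest at both later time points. From 4.5DDC to 6.5DDC the log2 fold change was 1.83 (SE 0.33, edgeR adjusted p = 0.00634), called under all 20 alternatives (adjusted p up to 0.025). The first interval gave 1.56 (SE 0.32, edgeR adjusted p = 0.136), and 1.49 with the replicate block (adjusted p = 0.0366). The second interval gave 0.27 (edgeR adjusted p = 0.657), and its sign turned without replicate 3 of 6.5DDC (−0.024).

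Gata3, a paralog of Gata2 that is used in serotonergic neurons of the caudal hindbrain, rose over the span, with a higher mean count at each later time point. It lies at chr2:9857078-9890034 on the minus strand. Of its exonic bases, 3.90% lie opposite Gm13256 and 1.94% are shared with 9230102O04Rik, so that reads there cannot be assigned with certainty. It had 1.09, 1.26 and 1.78 FPKM at 4.5DDC, 1.18, 4.70 and 3.07 FPKM at 5.5DDC and 2.60, 6.91 and 7.33 FPKM at 6.5DDC. Replicate 1 was the lowest library of each time point, and the libraries of 4.5DDC and 6.5DDC did not overlap. The FPKM of Gata3 for 1 CPM differed up to 3.36-fold between libraries (from 0.321 to 1.08), so its FPKM and its counts do not measure the same change. In scaled CPM it had 0.99998, 3.87 and 2.18 at 4.5DDC, 1.93, 5.87 and 6.54 at 5.5DDC and 7.62, 14.1 and 16.4 at 6.5DDC, which put 6.5DDC above both earlier time points without overlap. The log2 fold change over the whole span was 2.46 (SE 0.58, edgeR adjusted p = 0.0189). The other 18 alternatives kept this call, but leaving out replicate 3 of 4.5DDC gave an edgeR adjusted p of 0.0557 and leaving out replicate 2 of 6.5DDC gave 0.0608. The intervals gave 1.03 (edgeR adjusted p = 0.423) and 1.43 (adjusted p = 0.226), and the second was called with the replicate block (1.52, adjusted p = 0.0435).

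Lmx1b, a LIM homeodomain TF that serotonergic neurons share with the floor plate, was the most abundant of the 4 TF genes at each time point and was not called. It lies at chr2:33560965-33640511 on the minus strand. Its level was 13.5, 7.83 and 4.78 FPKM at 4.5DDC, 28.7, 16.6 and 13.9 FPKM at 5.5DDC and 11.5, 7.63 and 12.9 FPKM at 6.5DDC. In FPKM, 5.5DDC lay above both other time points without overlap (p = 0.1 against each by an exact two-sided permutation test, the smallest that 3 libraries against 3 allow). In scaled CPM the libraries of every pair of time points overlapped, and the FPKM for 1 CPM ranged from 0.163 to 0.246. The log2 fold change was 0.98 for the first interval (SE 0.38, edgeR adjusted p = 0.267), −0.47 for the second (edgeR adjusted p = 0.514) and 0.52 over the whole span (SE 0.38, edgeR adjusted p = 0.353). Within replicate 1 the change over the span was 0.025 in log2 CPM with a prior count of 2. In replicates 2 and 3 alone, edgeR called it higher over the first interval (1.12, adjusted p = 0.0402) and over the span (0.93, adjusted p = 0.0150). In the same fit, 2.42% of all genes were called higher and 0.895% lower over the first interval, and 16.5% and 14.8% over the span.

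Tph2, the neuronal tryptophan hydroxylase that carries out the rate-limiting step of serotonin synthesis, stayed low. Among the enzyme genes it had the largest log2 rise in the edgeR fit on counts. It lies at chr10:115078641-115185022 on the minus strand. It had 0.0693, 0.0554 and 0.128 FPKM at 4.5DDC (4, 3 and 6 counts), 0.122, 0.216 and 0.254 FPKM at 5.5DDC (10, 8 and 9 counts) and 1.30, 0.337 and 0.605 FPKM at 6.5DDC (53, 18 and 31 counts). At 6.5DDC all libraries lay above the earlier ones, with replicate 1 highest, and those of 4.5DDC and 5.5DDC overlapped. From 4.5DDC to 6.5DDC the log2 fold change was 2.95 (SE 0.62, edgeR adjusted p = 0.0117), and the ratio of summed counts in CPM was 7.54 with a 95% counting interval from 4.22 to 14.6. Replicate 1 alone went from 0.222 to 4.34 scaled CPM, and the edgeR log2 fold change in replicates 2 and 3 was 2.03 (adjusted p = 0.0209). Leaving out replicate 2 of 4.5DDC ended the call (edgeR adjusted p = 0.0521), and the other 19 alternatives kept it. The intervals gave 0.96 (edgeR adjusted p = 0.524) and 1.99 (adjusted p = 0.153). Without replicate 1 of 6.5DDC the change was 2.26 over the span and 1.30 over the second interval.

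Ddc, the aromatic amino acid decarboxylase of the second step, moved against Tph2. It lies at chr11:11814101-11898144 on the minus strand. It had 10.2, 14.1 and 13.9 FPKM at 4.5DDC, 5.05, 5.67 and 8.61 FPKM at 5.5DDC and 4.05, 5.89 and 5.66 FPKM at 6.5DDC. In FPKM all libraries of 4.5DDC lay above all later ones, and those of 5.5DDC and 6.5DDC overlapped. The FPKM of Ddc for 1 CPM differed up to 1.70-fold between libraries, and in scaled CPM replicate 1 of 4.5DDC (13.8) lay below replicate 3 of 5.5DDC (13.98), so that only 6.5DDC was separated from 4.5DDC. Over the whole span, on the log2 scale, Ddc fell by 1.53 (SE 0.31, edgeR adjusted p = 0.0106), and all 20 alternatives called the fall (adjusted p up to 0.0424). The intervals gave −0.89 (edgeR adjusted p = 0.233) and −0.65 (adjusted p = 0.294). The enzyme also makes dopamine, so genes of catecholamine neurons were set beside it. Of 5 such genes, 3 were tested and 1, Dbh (dopamine beta-hydroxylase), was called: it fell by 1.93 (SE 0.45, edgeR adjusted p = 0.0189), with 7.47 ± 4.53 FPKM (SD, n = 3) at 4.5DDC and 0.897 ± 0.878 FPKM at 6.5DDC. The other 2 tested genes were not called, and their counts and mean FPKM differed in direction. Th, the tyrosine hydroxylase that defines catecholamine neurons, gave a log2 fold change of 0.31 in counts (SE 0.61, edgeR adjusted p = 0.746), against 3.89 ± 2.13 FPKM (SD, n = 3) at 4.5DDC and 3.37 ± 1.88 FPKM at 6.5DDC, and Slc6a2, the noradrenaline transporter, gave 0.082 (edgeR adjusted p = 0.955), against means of 0.164 and 0.148 FPKM. The summed level of these genes ranged from 7.44 to 13.9 FPKM at 4.5DDC and from 3.58 to 5.58 FPKM at 6.5DDC, with Pnmt listed at 0 in all libraries, and their part in the fall of Ddc was not tested.

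Gch1, which makes the first step towards tetrahydrobiopterin, the cofactor of tryptophan hydroxylase, rose over the span, with overlapping libraries up to 5.5DDC. It lies at chr14:47153895-47189413 on the minus strand. It had 0.669, 1.43 and 0.826 FPKM at 4.5DDC, 0.745, 1.45 and 0.985 FPKM at 5.5DDC and 1.85, 2.38 and 2.96 FPKM at 6.5DDC. At 6.5DDC all libraries lay above all earlier ones, and the earlier ones overlapped. The log2 fold change over the span was 1.30 (SE 0.36, edgeR adjusted p = 0.0341). It was the least stable call among the members: it was kept under 15 of 20 alternatives and lost without replicate 1 or 3 of 4.5DDC, replicate 3 of 5.5DDC, or replicate 2 or 3 of 6.5DDC (adjusted p from 0.0553 to 0.0937). The intervals gave 0.079 (edgeR adjusted p = 0.942) and 1.22 (adjusted p = 0.159).

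Maob, the monoamine oxidase isoform found in serotonergic neurons and glia, was low and was not called in any comparison. It lies at chrX:16709282-16817366 on the minus strand. It had 1.27, 0.365 and 0.372 FPKM at 4.5DDC, 0.361, 0.291 and 0.171 FPKM at 5.5DDC and 0.483, 0.184 and 0.257 FPKM at 6.5DDC. Replicate 1 was highest at each time point, and the libraries of 4.5DDC lay above those of 5.5DDC without overlap. The log2 fold change was −1.16 over the span (SE 0.65, edgeR adjusted p = 0.229), −1.55 in the first interval (edgeR adjusted p = 0.303) and 0.40 in the second (adjusted p = 0.777). Without replicate 1 of 4.5DDC these changes were −0.33 over the span and −0.72 in the first interval, and without replicate 1 of 5.5DDC the intervals gave −2.27 and 1.11.

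Slc6a4, the serotonin transporter of the cell surface, had the largest log2 change of the 10 genes in the edgeR fit on counts. It lies at chr11:76998603-77032340 on the plus strand. It had 0.0954, 0 and 0.0205 FPKM at 4.5DDC (1, 0 and 1 counts), 0.152, 0.0518 and 0.155 FPKM at 5.5DDC (13, 2 and 3 counts) and 1.45, 0.834 and 0.671 FPKM at 6.5DDC (63, 46 and 35 counts). At 6.5DDC all libraries lay far above the earlier ones, and those of 4.5DDC and 5.5DDC overlapped in FPKM but not in scaled CPM. The ratio of summed counts in CPM between 4.5DDC (2 counts) and 6.5DDC (144 counts) was 69.2, with a 95% counting interval from 18.8 to 576. The edgeR log2 fold change was 5.95 (SE 0.72, edgeR adjusted p = 0.00151), called under all 20 alternatives (adjusted p up to 0.00944). With limma on log2 FPKM with 0.1 added, the change of Slc6a4 was 2.96, against 3.61 for Fev. With 1 added it was 0.916, against 2.50 for Slc18a2, then the largest of the members. The first interval gave 2.68 (edgeR adjusted p = 0.207). The second gave 3.28 (SE 0.55, edgeR adjusted p = 0.0556), was called with the replicate block (3.38, adjusted p = 0.0225) and in 7 of 20 alternatives in all. Without replicate 1 of 5.5DDC the intervals gave 2.05 and 3.88.

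Slc18a2, the vesicular monoamine transporter Vmat2, was by far the most abundant member at 6.5DDC and was higher at each later time point in every replicate. It lies at chr19:59260896-59296012 on the plus strand, and 2.12% of its exonic bases lie opposite Gm29261. It had 12.4, 4.49 and 5.46 FPKM at 4.5DDC, 26.1, 17.04 and 16.8 FPKM at 5.5DDC and 50.9, 37.4 and 42.4 FPKM at 6.5DDC. The 3 time points did not overlap, and replicate 1 was highest at each. Over the whole span the log2 fold change was 2.54 (SE 0.37, edgeR adjusted p = 0.00273) and it was called under all 20 alternatives (adjusted p up to 0.0136). In log2 CPM with a prior count of 2, replicate 1 on its own gave 2.09, and the edgeR fit on replicates 2 and 3 gave 2.96. The intervals gave 1.39 (edgeR adjusted p = 0.160) and 1.15 (adjusted p = 0.167), and both were called with the replicate block (1.48, adjusted p = 0.0185, and 1.18, adjusted p = 0.0298).

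**Figure D2:**
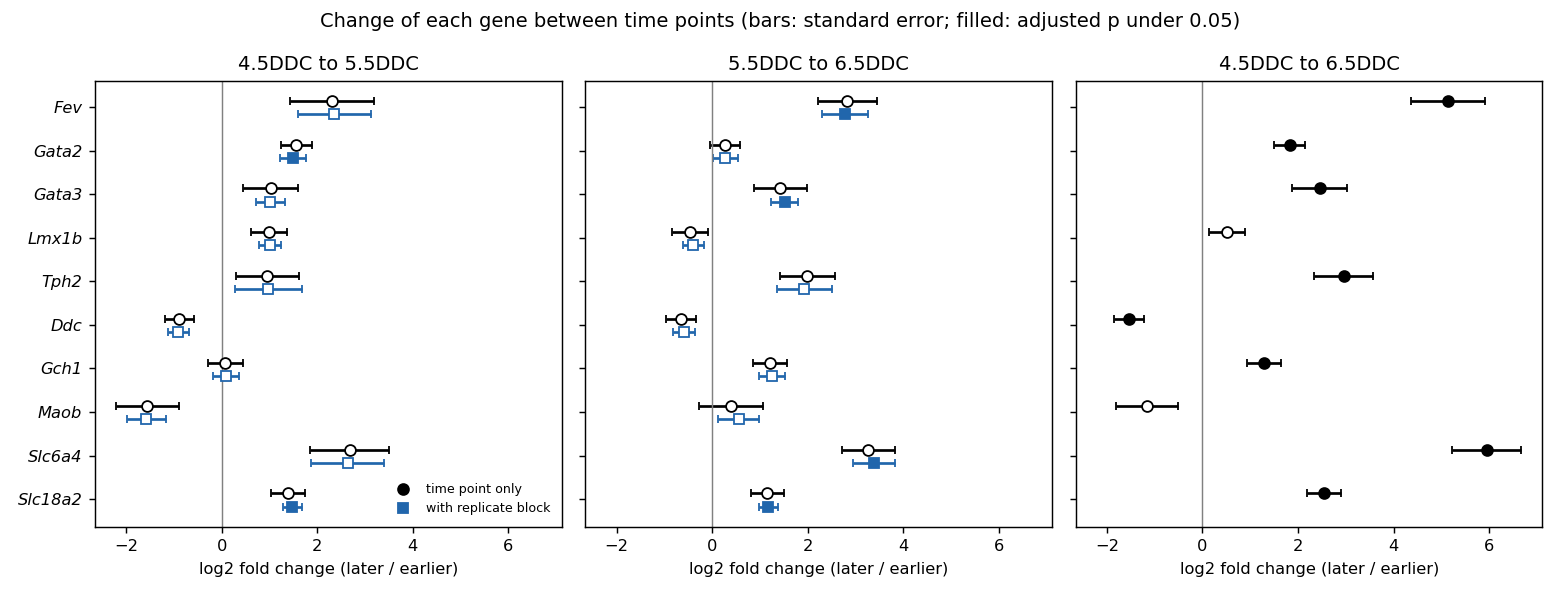
Log2 fold change in the counts (x axis, later over earlier time point) of each gene for the 3 comparisons, with bars for the standard error, circles for the fit on time point alone and, in the shorter intervals, squares for the fit with the replicate block, filled where the adjusted p is under 0.05. Over the whole span 8 circles are filled, Slc6a4 lies farthest to the right at 5.95 and Ddc lies at −1.53, while no circle is filled in either shorter interval.

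The order in which the rising genes approached their 6.5DDC level was described by the share of that level reached earlier, calculated within each replicate number. At 5.5DDC, Gata2 had reached 86.9% ± 22.7 (SD, n = 3) of its 6.5DDC FPKM, Gata3 51.7% ± 14.2, Slc18a2 45.4% ± 5.86 and Gch1 44.8% ± 14.3. Tph2 had reached 38.5% ± 27.5, Fev 15.2% ± 7.86 and Slc6a4 13.3% ± 8.79. Fev and Slc6a4 passed the filter only through 6.5DDC, and Tph2 through 6.5DDC and 1 library of 5.5DDC. For these genes a higher level at 6.5DDC was a condition of being tested, so their places in the order are a description. The shares of Fev and Slc6a4 overlapped each other, and those of Tph2, from 9.35% to 64.0%, overlapped those of Fev, Slc6a4, Gata3, Slc18a2 and Gch1. The replicate number does not separate replicate 2 from replicate 3, so these shares, their SD and any order of genes read from them depend on matching libraries by number. In scaled CPM the share of Gata3 was lower, at 35.6% ± 8.998, and that of Gata2 was 84.4% ± 20.5. By mean, Gata3 then came after Slc18a2 (44.5% ± 4.19), Gch1 (43.6% ± 13.3) and Tph2 (37.8% ± 26.8), whose shares overlapped with its own. The place of Gata3 in the order thus depended on the unit. Replicate numbers did not pair the libraries of 4.5DDC with those of 6.5DDC, so the shares at 4.5DDC match libraries by number only. They ran from 2.43% ± 2.15 for Fev and 3.22% ± 3.30 for Slc6a4 to 41.4% ± 16.8 for Gch1 in FPKM. In scaled CPM the lowest was Slc6a4 at 1.5% ± 1.8, before Fev at 2.65% ± 2.35, and Gata3 stood at 18.0% ± 8.23 against 28.1% ± 12.3 in FPKM. Lmx1b stood at 192% ± 74.8 and Ddc at 124% ± 28.0 of their last level at 5.5DDC. The test of a difference between the 2 intervals on the log2 scale called 0 of the 10 genes and 0% of all genes in edgeR, and DESeq2 also called 0. The members with an unadjusted p under 0.05 in it were Gata2 (second minus first interval −1.29) and Lmx1b (−1.45), both with an edgeR adjusted p of 0.76, and 4.76% of all genes had such an unadjusted p. A different timing of single genes was thus not detectable on the log2 scale with 3 libraries per time point.

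**Figure D3:**
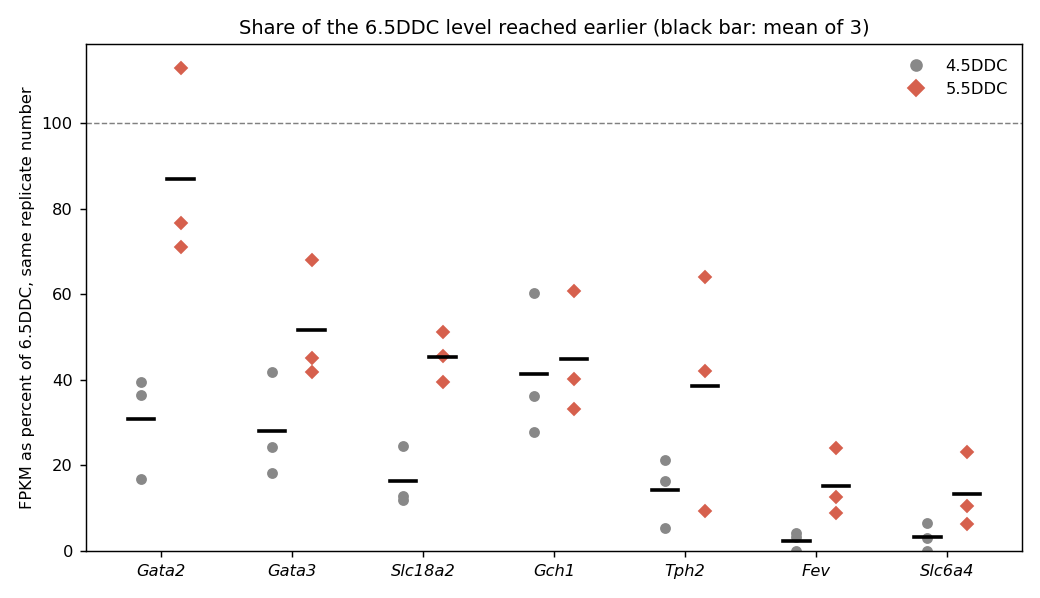
FPKM at 4.5DDC (grey circles) and 5.5DDC (red diamonds) as percent of the FPKM at 6.5DDC in the library of the same replicate number (y axis), for the 7 genes that rose, with 1 point per library and black bars for the mean of 3. At 5.5DDC, with this matching, the points of Gata2 lie between 71.0% and 113%, those of Tph2 between 9.35% and 64.0% and those of Slc6a4 between 6.21% and 23.1%. Fev, Slc6a4 and, but for 1 library of 5.5DDC, Tph2 passed the filter only through 6.5DDC, so their low shares are a description.

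Levels of different members differed by orders of magnitude at a given time. At 4.5DDC the order of mean levels was Ddc (12.8 ± 2.19 FPKM, SD, n = 3), Lmx1b (8.72 ± 4.44) and Slc18a2 (7.47 ± 4.34), whose libraries overlapped with those of their neighbours in this order. They were followed, without overlap, by Gata2 (1.43 ± 0.227), Gata3 (1.38 ± 0.361), Gch1 (0.977 ± 0.404) and Maob (0.669 ± 0.521). Tph2, Fev and Slc6a4 came last, all under 0.13 FPKM in each library. At 5.5DDC, Slc18a2 (19.96 ± 5.31 FPKM) and Lmx1b (19.7 ± 7.91) stood above Ddc (6.44 ± 1.90), Gata2 (4.35 ± 1.41), Gata3 (2.98 ± 1.77) and Gch1 (1.06 ± 0.357), and Lmx1b did not overlap with Ddc. At 6.5DDC Slc18a2 (43.6 ± 6.86 FPKM) was above Lmx1b (10.7 ± 2.73) without overlap, and Lmx1b above Gata3 (5.61 ± 2.62). Gata3, Ddc (5.20 ± 1.003) and Gata2 (5.13 ± 1.92) overlapped, as did Gch1 (2.397 ± 0.554) and Fev (1.70 ± 0.725), Fev and Slc6a4 (0.984 ± 0.410), and Slc6a4 and Tph2 (0.748 ± 0.498). The vesicular transporter was thus the most abundant member at the time when Tph2 and Slc6a4 were at or under 1.45 FPKM in every library. Ddc, the enzyme gene of the second step of serotonin synthesis, had a mean of 5.20 FPKM at that time.

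Other genes of the pathway were taken from lists. Of 8 TF genes that act upstream in the lineage, 7 were tested and only Nkx6-1 was called: this homeodomain factor fell by 1.14 (SE 0.28, edgeR adjusted p = 0.0220), with 44.6 ± 12.5 FPKM (SD, n = 3) at 4.5DDC and 20.4 ± 6.58 FPKM at 6.5DDC. Of 7 other genes that handle serotonin, 5 were tested and Tph1 was called lower. Tph1, the tryptophan hydroxylase of peripheral tissues, fell by 1.97 (SE 0.56, edgeR adjusted p = 0.0360). It had 0.666, 1.21 and 1.30 FPKM at 4.5DDC, 0.416, 0.521 and 0.589 FPKM at 5.5DDC and 0.319, 0.292 and 0.152 FPKM at 6.5DDC. The time points did not overlap, and at 4.5DDC each library held more Tph1 than Tph2, whereas at 6.5DDC each held more Tph2. Maoa, the other monoamine oxidase, had 10.4 ± 0.990 FPKM at 4.5DDC and 12.4 ± 1.06 FPKM at 6.5DDC and was not called (edgeR adjusted p = 0.288).

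Among 6 receptor and late identity genes, 1 was tested and called. Slc17a8, which encodes the vesicular glutamate transporter Vglut3 found in a part of the serotonergic neurons, had 1.29, 0.566 and 1.93 FPKM at 4.5DDC, 2.24, 6.96 and 6.06 FPKM at 5.5DDC and 14.7, 28.4 and 30.4 FPKM at 6.5DDC. The time points did not overlap. Its log2 fold change over the span was 4.23 (SE 0.54, edgeR adjusted p = 0.00173). The serotonin receptor genes Htr1a, Htr1b, Htr1d, Htr5a and Htr5b were too low to be tested, with means of at most 0.201 FPKM at any time point. None of the genes in these lists was called over a shorter interval.

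For each member, the genes with the most similar profile (3 per member, 2 for Lmx1b) over the 9 libraries were found among 13367 genes, by the root mean square difference of log2 CPM after each gene's own mean was subtracted. For Fev they were Diras2 (0.45), Chgb (0.45) and Lrrtm2 (0.50), and Chgb, a protein of secretory granules, went from 9.07 FPKM at 4.5DDC to 84.3 FPKM at 6.5DDC. For Slc6a4 they were Nell1 (0.67), Kcnmb2 (0.73) and Dpp6 (0.76), which was the loosest match of any member. For Tph2 they were Lrrn3 (0.31), Gdpd2 (0.38) and Egln3 (0.44). For Slc18a2 they were Gpr37 (0.16), Plekha2 (0.18) and Dnahc9 (0.22). For Gata2 they were Cdh4 (0.16), Sfxn3 (0.25) and Ttyh1 (0.26), and for Gata3 Smim18 (0.22), Stk32b (0.23) and Cacnb4 (0.32). Lmx1b was closest to 1700088E04Rik (0.15) and Mmp11 (0.16), and Gch1 to S1pr3 (0.22), Rnf152 (0.25) and Rgs17 (0.25). Ddc was closest to Lyar (0.16), Cdc25a (0.19) and Slc35g1 (0.21), and Maob to Ifitm1 (0.35), 4930447C04Rik (0.35) and 2610305D13Rik (0.36). No member was among the closest genes of another. Within the members, the closest pairs were Gata2 with Gch1 (0.64), Gata3 with Gch1 (0.64) and Gata2 with Gata3 (0.68), and the most distant pair was Ddc with Slc6a4 (2.45).

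Markers of other cells moved over the same time points, and they differed between the replicate numbers. Of 7 progenitor genes, all were tested, 1 was called higher and 1 lower over the span. Sox2 had 82.1 ± 5.18 FPKM (SD, n = 3) at 4.5DDC and 87.6 ± 7.37 FPKM at 6.5DDC, and Prom1, the gene of the sorting antigen, was called higher at 6.5DDC (log2 fold change 1.19, SE 0.18, edgeR adjusted p = 0.00363). Sox3, another gene of neural progenitors, fell by 1.80 (SE 0.49, edgeR adjusted p = 0.0330), with 8.29 ± 5.34 FPKM at 4.5DDC and 2.38 ± 1.10 FPKM at 6.5DDC. Genes of differentiated neurons were also present. Of 7 pan-neuronal genes tested, Map2 was called higher over the span (1.65, SE 0.31, edgeR adjusted p = 0.00768) and none lower. Their summed level was 175, 387 and 287 FPKM in replicates 1 to 3 of 4.5DDC, 165, 486 and 503 FPKM at 5.5DDC and 289, 655 and 701 FPKM at 6.5DDC. Replicate 1 was lowest at each time point, as it was in FPKM for Gata3, Gch1 and the falling Ddc. It was also lowest for Gata2 at 5.5DDC and 6.5DDC and for Fev at 4.5DDC and 5.5DDC. The part of these neuronal genes in the changes of the members was not tested.

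Visceral MN genes went the other way, with 2 of 5 tested called lower from 4.5DDC to 6.5DDC and 0 higher. Isl1, a LIM homeodomain factor of MNs, fell by 2.44 (SE 0.31, edgeR adjusted p = 0.00173), and Phox2a fell by 2.15 (SE 0.43, edgeR adjusted p = 0.0100). The summed level of these 5 genes ranged from 67.6 to 122 FPKM at 4.5DDC and from 19.7 to 49.8 FPKM at 6.5DDC.

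Floor plate genes rose in part: 5 of 7 tested were called higher over the span, among them Shh, Spon1, Ntn1 and Ferd3l, and 0 lower. Their summed level was 960, 593 and 598 FPKM at 4.5DDC, 1781, 1170 and 1184 FPKM at 5.5DDC and 1538, 1347 and 1486 FPKM at 6.5DDC. Replicate 1 was highest at each time point, as it was for Slc18a2 and Maob and, at 4.5DDC and 5.5DDC, for Lmx1b. The part of floor plate genes in the levels of these members was not tested. The roof plate and dorsal genes that could also carry Lmx1b summed to at most 1.58 FPKM in any library, with Lbx1 listed at 0 in all of them.

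For Gata2 and Gata3, the other cells considered were GABAergic interneurons and blood. The 7 interneuron genes, among them Gad1, Gad2 and Tal1, summed to at most 0.775 FPKM in any library, and none had enough counts to be tested. Of 8 blood and endothelial genes, 5 were tested and Kdr was called higher (log2 fold change 1.76, SE 0.37, edgeR adjusted p = 0.0121). Their summed level ranged from 1.87 to 6.37 FPKM at 4.5DDC, 2.07 to 9.94 FPKM at 5.5DDC and 10.3 to 10.9 FPKM at 6.5DDC, while Gata1, the red cell factor, had at most a mean of 0.0102 FPKM and Hba-a1 was listed at 0. The highest of them were Runx1, a TF of blood progenitors and of some neurons, with means of 1.57, 2.82 and 3.84 FPKM at the 3 time points, and Cdh5, a cadherin of endothelial cells, with 1.92, 2.96 and 3.50 FPKM. Neither was called over the span (log2 fold changes 1.28 and 0.87, edgeR adjusted p = 0.239 and 0.504). Runx1 and Kdr were lowest in replicate 1 at each time point, as Gata3 was. The other tested genes of this list, Cdh5, Pecam1 and Tek, were highest in replicate 1 at 6.5DDC. Cdh5 was lowest in replicate 1 at 4.5DDC (0.266 against 2.78 and 2.70 FPKM) and at 5.5DDC (0.405 against 4.51 and 3.96 FPKM). Pecam1 was lowest in replicate 1 at 4.5DDC, and Pecam1 and Tek were highest there at 5.5DDC. Of 6 surface ectoderm genes tested, 0 were called in either direction, with a summed level from 44.8 to 74.0 FPKM at 4.5DDC and from 32.9 to 48.9 FPKM at 6.5DDC. For Maob, which glia also express, 3 of 3 astrocyte genes tested were called higher over the span (Aldh1l1, Aqp4 and Slc1a3), with sums from 15.2 to 25.2 FPKM at 4.5DDC and from 57.2 to 64.0 FPKM at 6.5DDC, and Gfap and S100b were too low to be tested. The part of these lists in the members' levels was not tested.

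**Figure D4:**
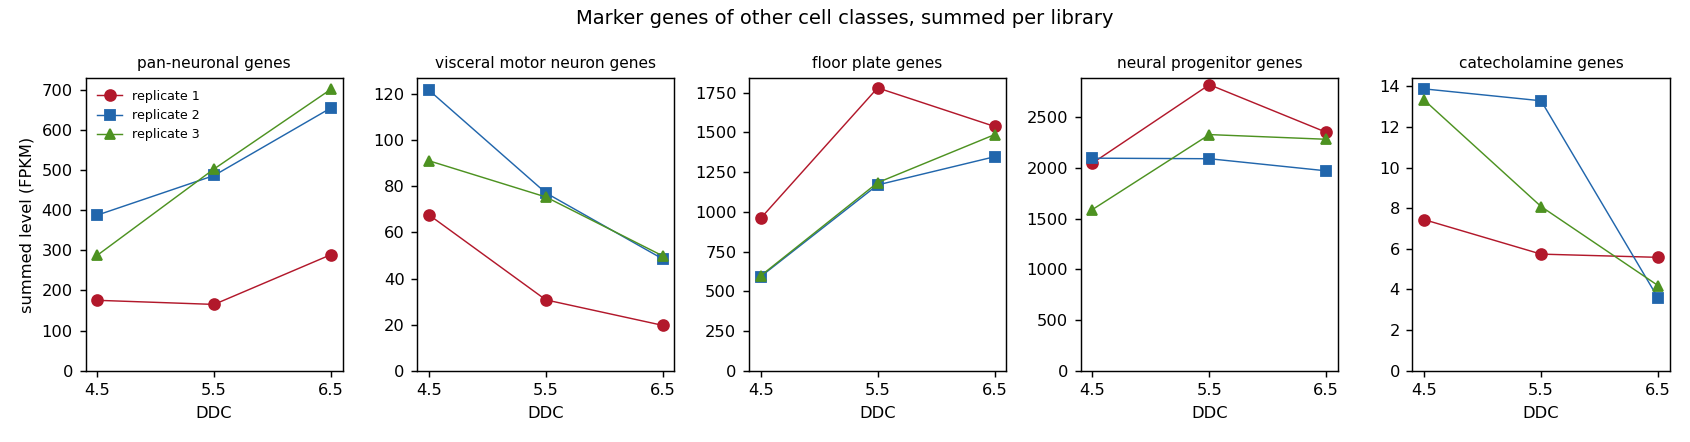
Summed FPKM (y axis, linear and separate for each list) of marker genes of 5 cell classes against DDC, with 1 point per library and lines joining libraries of the same replicate number. Replicate 1 is lowest for pan-neuronal and visceral MN genes and highest for floor plate genes at each time point, and visceral MN genes decline in each replicate.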

How the data were processed

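RNA from 9 libraries of Prominin-1-sorted NSCs was sequenced as polyA-selected single-end libraries. Per the labels and the methods of the study, reads were mapped to GRCm38 with TopHat2 2.0.4, after bcl2fastq 1.8.3. The authors deposited read counts per gene symbol from HTSeq 0.6.1, treated here as estimated counts because 98 symbols hold values that are not whole, and these were rounded. The deposited FPKM values were estimated by the authors with Cufflinks 2.1.1, whose transcript assignment can move FPKM against counts. The annotation release and the strand setting are not given in the sources used here. A table of voom values was not used.

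Counts were tested with edgeR 4.0.16 in R 4.3.3 (TMM factors from 0.951 to 1.04, filter by expression with a minimum of 10 counts, time point as factor, 6 residual degrees of freedom). This left 14742 of 38197 symbols. Standard errors belong to the log2 fold changes of these fits, and p-values of edgeR's quasi-likelihood test were adjusted over all genes tested by the method of Benjamini and Hochberg. The fits were tested on simulated data, and no outcome of that is reported here. FPKM was compared by two-sided exact permutation tests, and counts by exact intervals that cover counting error only. Gene positions and overlaps come from GENCODE M21, and starting regions from RefSeq. The alternatives were other scalings, filters and tests (DESeq2 1.42.0, limma 3.58.1 on voom values and on log2 FPKM), a replicate block, replicates 2 and 3 alone and each library left out. Replicate numbers come from the labels. Deviations of libraries with the same number correlated across genes at 0.743, 0.386 and 0.452 between 4.5DDC and 5.5DDC and at 0.454, 0.367 and 0.197 between 5.5DDC and 6.5DDC. The block was fitted once over all 9 libraries. It therefore also matched 4.5DDC with 6.5DDC by number, although the numbers did not pair those time points. Between adjacent time points, libraries of unlike number gave −0.653 to −0.245 where replicate 1 was one of them, and 0.225 to 0.405 for replicate 2 with 3, so the number separates replicate 1 but not replicate 2 from 3.

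The 10 genes and all lists were chosen with earlier results of these data known. Text names the 10 genes throughout, called genes of the serotonin lists, at most 4 genes of each marker list with the highest mean FPKM together with called genes, and the 3 closest profiles; Maoa, the receptor genes and the marker genes at or near 0 were named after their values were seen. A few genes within these lists and profiles are not reported here.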

Additional observations from a re-analysis of the deposited data

How the results depend on the processing

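Over the whole span, 8 members and 18.7% of all genes were called; when 1 library was left out, 6 to 8 members were called and between 7.56% (without replicate 2 of 6.5DDC) and 20.9% (without replicate 1 of 5.5DDC) of all genes. In the first interval the test with all libraries called 0 members. DESeq2 called 2 (of 6 given an adjusted p), the replicate block 2, and replicates 2 and 3 alone 3 (Gata2, Lmx1b and Slc18a2). Leaving out 1 library there gave 0 to 1. Without replicate 1 of 4.5DDC it was Slc18a2 (edgeR adjusted p = 0.0457), with 0.0871% of all genes called. The second interval gave Slc6a4 alone with library totals without TMM, no filter on low counts or a filter of 1 CPM in 3 libraries. These fits called 0.283% to 0.373% of all genes. DESeq2, the replicate block and replicates 2 and 3 alone called 4 each (4.97% of all genes were called in the last of these). Leaving out 1 library gave 0 to 1 in the second interval. Without replicate 1 of 6.5DDC it was Slc6a4 (edgeR adjusted p = 0.0472), with 1.29% of all genes called, against 0.224% with all libraries. The sign turned when 1 library was left out for Gch1 in the first interval (−0.21 to 0.42) and for Gata2 (−0.024 to 0.47) and Maob (−0.096 to 1.11) in the second. The cause of these differences was not tested. Of the other log2 fold changes under an alternative, 560 kept direction and neither gained nor lost a call, 25 gained the call and 8 lost it. Among the 560 are Fev, Tph2, Maob and Slc6a4 in the first interval under DESeq2, which gave them no adjusted p. Numbers did not pair 4.5DDC with 6.5DDC (correlations 0.383, −0.0396 and −0.215), where the block called 8 members too and 23.2% of all genes. Over all genes, calls in the 2 short intervals numbered 11 and 33, against 212 and 195 with the block and 495 and 662 with DESeq2. With at most 3 counts per library at 4.5DDC, the early levels of Fev and Slc6a4 are limited by depth.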

Other observations

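The FPKM that a library gave for 1 CPM should be close to constant for a gene. Over libraries with at least 10 counts, the highest ratio exceeded the lowest by at most 1.12-fold for 7 of the members, among them Gata2 (1.04-fold, 9 libraries) and Slc18a2 (1.03-fold, 9 libraries). It differed by 3.36-fold for Gata3, 1.70-fold for Ddc and 1.51-fold for Lmx1b. For Ddc the highest ratio was in replicate 2 of 6.5DDC (0.844 FPKM for 1 CPM) and the lowest in replicate 2 of 5.5DDC (0.497). For Gata3 the highest was in replicate 1 of 4.5DDC (1.08, from 18 counts) and the lowest in replicate 2 of 4.5DDC (0.321). The cause was not tested, and levels of these 3 genes in FPKM carry this spread.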
